A study of Saccharomyces cerevisiae with 9 samples.

Results

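The data are the transcript levels of the reference strain (REF) of Saccharomyces cerevisiae in glucose-limited continuous culture, measured on the 3 arrays whose titles name that strain, out of 9 arrays in the series. The members are the 5449 S. cerevisiae genes that the array measures, each given by its brightest probe set, with its mean level over the 3 arrays and its rank within each array. The series set REF beside 2 other strains that carry desaturase genes of M. rouxii (D12, and D126 with a further desaturase), on 3 arrays each. Those 6 arrays were not used here, and no strain is compared with another.

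The reference cultures were chemostats with a dilution rate of 0.1 per h, kept at steady state for 5 residence times or more before sampling, per the labels. The design text counts the reference strain among 3 recombinant yeasts, but the labels give no genotype, plasmid, selectable marker, mating type or aeration for it, and no ingredient of the medium beyond the glucose limitation. They leave unsaid if each replicate had a chemostat of its own, so a standard deviation (SD) here is the spread between 3 arrays, which may be technical.

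In a chemostat, fresh medium flows in at a fixed rate and the cells grow only as fast as the scarcest nutrient allows. When that nutrient is glucose, the sugar left around the cells is very low. Budding yeast that senses little glucose is known to lift glucose repression: genes for high-affinity sugar uptake, respiration, use of ethanol and acetate, and stress defence are then transcribed, while low-affinity sugar carriers are not. Many yeast enzymes exist as isoforms from duplicated genes, some kept for growth with oxygen or little glucose and others for the opposite condition.

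Levels are log2 values made by RMA, a method that corrects background, brings the arrays to a shared distribution and summarises the probes of a probe set. Probe sets bind their targets unequally, so the level of a gene against another gene is only a coarse reading. The same array gives the size of that limit. In 47 genes with more than 1 probe set, the dimmest and brightest sets differed by a median of 0.66 on the log2 scale. The difference was under 1 in 28 genes, over 2 in 12 genes and 7.84 at most. Except in EFG1 (0.19) and PRM7 (0.45), at least 1 of the sets is of a kind that can bind similar transcripts. How much of the differences comes from such binding was not tested. In 8 control transcripts probed at the 3′ end, the middle and the 5′ end, the spread between positions had a median of 1.004 and ran from 0.336 to 1.72. Differences between genes below about 1 are therefore given as values and not read.

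Most genes lay far above background. The array also carries probe sets for genes outside the S. cerevisiae gene table, and 1746 of these, with a median level of 3.88, served as background. Their 95th percentile, 5.61, was taken as the background limit. Of 5449 genes, 5340 (98%) had a mean above the limit and 109 (2%) lay at or below it, while 88 of the background probe sets (5.04%) exceeded it. Genes had a median level of 10.94, the central 50% ran from 10.03 to 12.04, and means spanned 2.81 to 15.50. Each array taken against its own limit (5.67, 5.66 and 5.64) left 107 genes at or below it on all 3 arrays and 125 on at least 1.

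**Figure D1:**
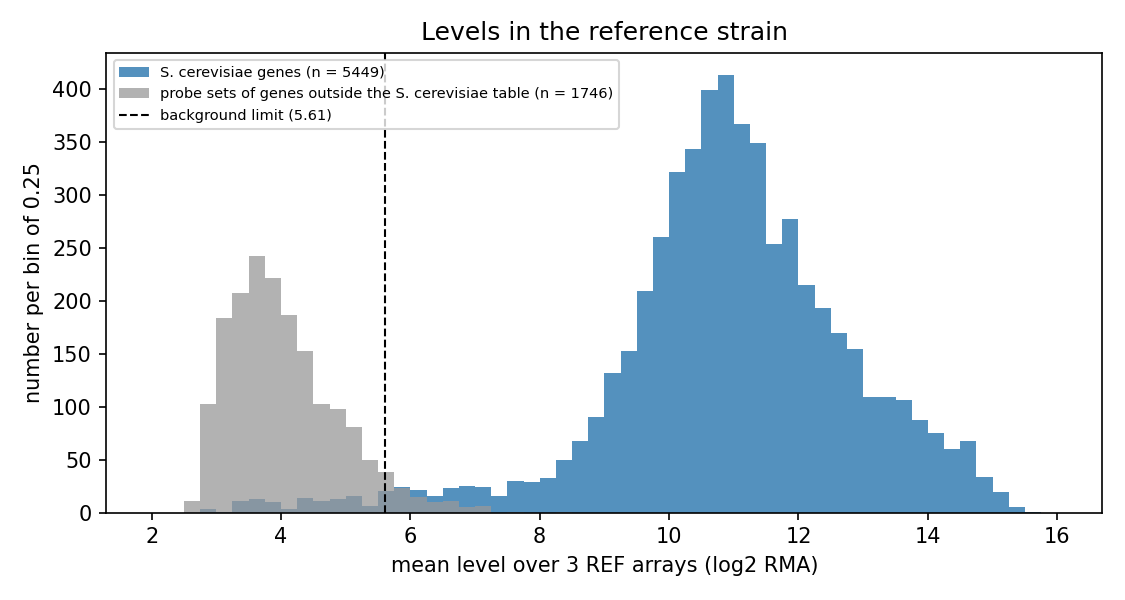
Number of genes or probe sets (vertical axis) in bins of 0.25 of the mean level over the 3 REF arrays (horizontal axis, log2 RMA). The 5449 S. cerevisiae genes centre near 10.94, the 1746 background probe sets near 3.88, and the dashed line marks the limit of 5.61.

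The ranking was steady over the 3 arrays. The SD of a gene had a median of 0.04 and a 95th percentile of 0.13, and was smaller for the brightest 10% of genes (median 0.02) than for genes at or below the limit (median 0.11). A gene's percentile moved by a median of 1.11 points between its lowest and highest array, and by over 10 points in 21 genes. Of the 272 genes in the brightest 5% by mean level (4.99% of all), 261 were there on every array. Differences between arrays had an SD of 0.080 for replicates 1 and 2, 0.114 for replicates 1 and 3, and 0.107 for replicates 2 and 3. The 7 ribosomal RNA probe sets were lowest on replicate 3 in all 7 cases, with medians of 8.28, 8.40 and 7.63 on replicates 1, 2 and 3.

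The very top of the ranking mixed glycolysis, stress proteins, the cell surface and the use of ethanol and acetate. TDH3, the main glyceraldehyde-3-phosphate dehydrogenase, stood at 15.50, 15.51 and 15.50 on replicates 1, 2 and 3 and was the brightest gene on each. HSP26, a small heat shock chaperone, followed at 15.36, 15.38 and 15.38. Next came TEF2, translation elongation factor 1 alpha, at 15.35, 15.33 and 15.32, on a probe set of the kind that can bind similar transcripts, called shared below. All 3 genes varied little between arrays, with SDs of about 0.01. The other 17 of the brightest 20 had means from 15.03 to 15.32. Among them, PGK1, FBA1, GPM1, CDC19 and ENO1 encode glycolytic enzymes and PDC1 encodes pyruvate decarboxylase. ALD4 (mitochondrial aldehyde dehydrogenase) and ADH2 (the ethanol-oxidising alcohol dehydrogenase) act on ethanol carbon. HSP12 and DDR2 are stress-induced genes. CCW12, SED1 and CWP2 encode cell wall mannoproteins. ERG25 encodes a sterol methyl oxidase, CPR1 cyclophilin, and HOR7 a small stress-responsive protein. The top of the scale is narrow, and whether bright probes were compressed was not tested.

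URA3, orotidine phosphate decarboxylase of pyrimidine synthesis and a common selectable marker in yeast work, ranked 5 of all genes. It read 15.32, 15.30 and 15.34 on the 3 arrays, a mean of 15.32 ± 0.02 (SD, n = 3). Separate control probe sets for the same transcript gave 14.85 at the 3′ end, 15.19 in the middle and 15.16 at the 5′ end. The other 8 measured genes of pyrimidine synthesis were lower, from URA10 at 10.40 to URA2 at 14.13. Other genes that are often used as markers were at 13.17 (LEU2), 13.07 (LYS2), 12.91 (ADE2) and 12.85 (HIS3), and TRP1 was not analysed here. MET17, a further marker gene, read 14.56.

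The brightest 10% of genes (545 genes, 10% of all, level 13.30 and above) is used below to describe gene lists, beside the median of all genes, 10.94. The lists are of known function and were not picked from the levels themselves, but earlier results on these data were known when they were drawn up. Of 47 lists, 35 had a median above that of all genes.

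**Figure D2:**
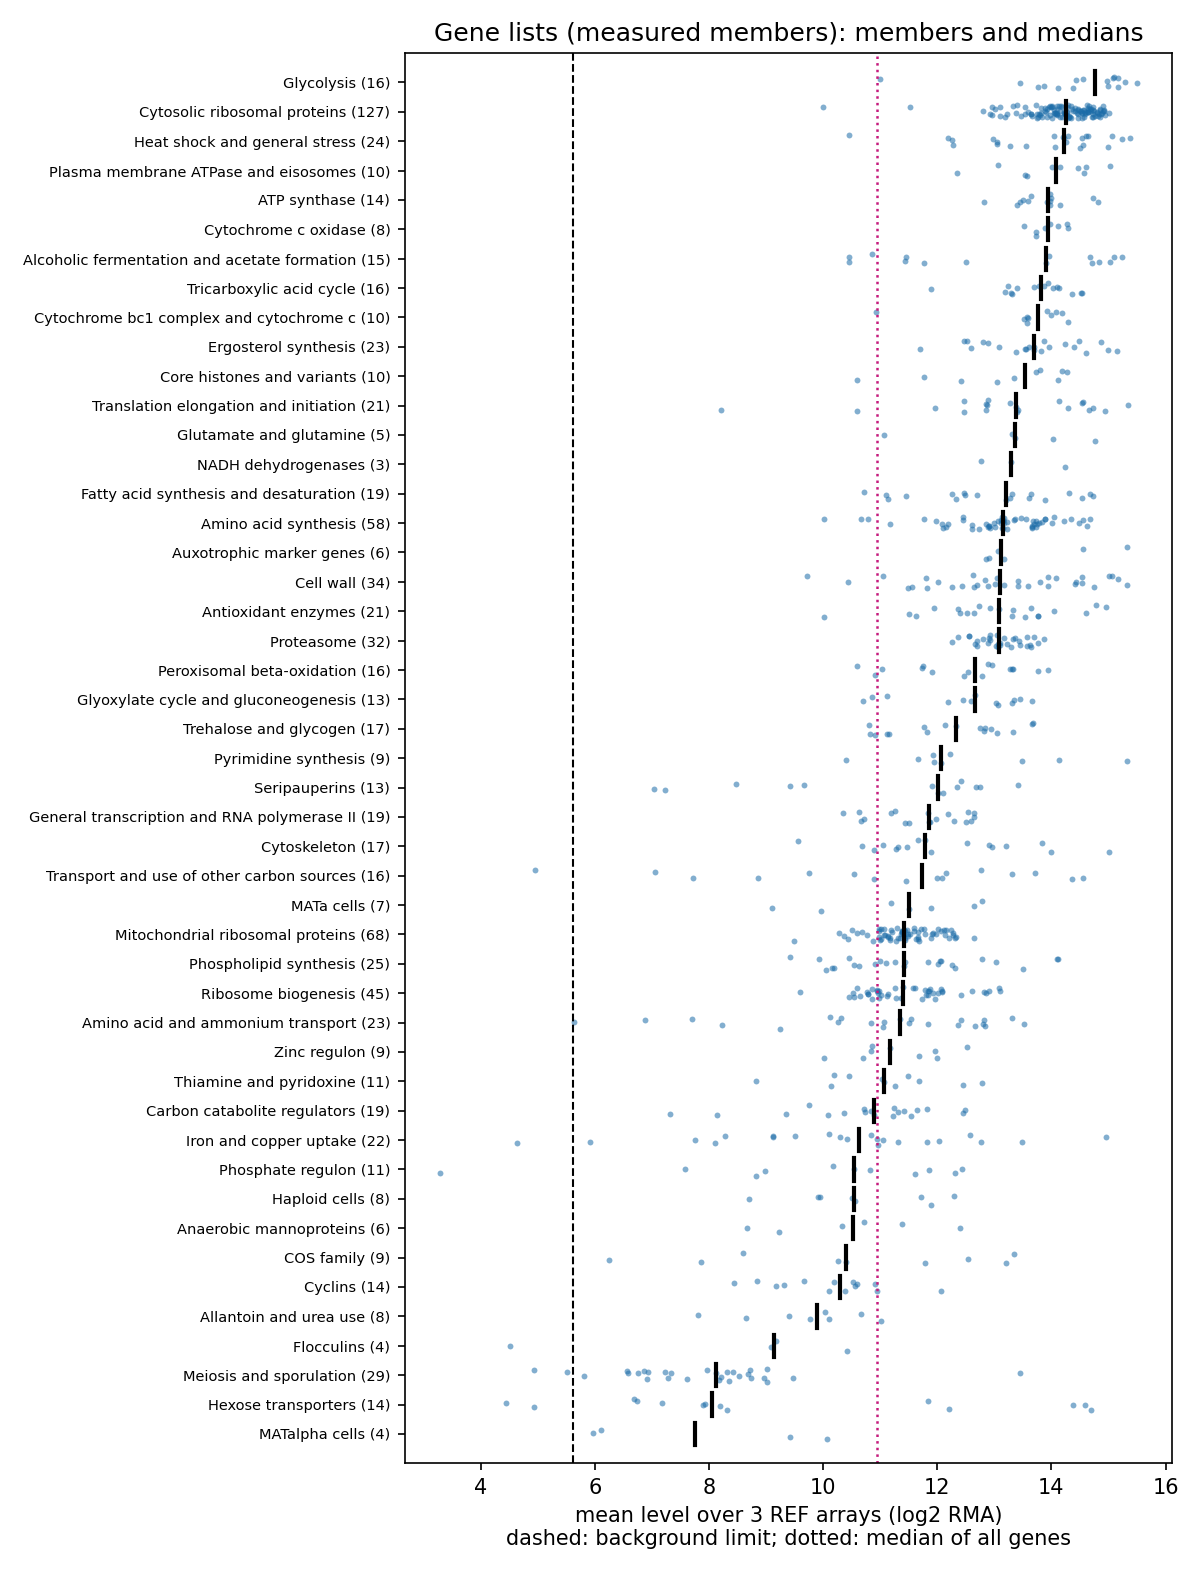
Mean level over the 3 REF arrays (horizontal axis, log2 RMA) of each measured member (points) of 47 gene lists, ordered by list median (black bars), with the number measured in parentheses. The dashed line is the background limit (5.61) and the dotted line the median of all genes (10.94), and list medians run from 14.77 for glycolysis to 7.76 for MATalpha cells.

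Glycolysis had the highest median of the lists, 14.77. Of 17 genes, 16 were measured and 15 of these were in the brightest 10%. Behind TDH3, PGK1 (phosphoglycerate kinase) read 15.29 and FBA1 (aldolase) 15.17. PFK1 and PFK2, the subunits of phosphofructokinase, were among its lower members at 13.76 and 13.88. The exception in the list was PYK2, a pyruvate kinase known to be repressed by glucose, at 10.997 ± 0.006 (SD, n = 3). All 3 hexose-phosphorylating genes were bright, with GLK1 (glucokinase) at 14.56, HXK1 at 14.43 and HXK2 at 13.45.

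The cytosolic ribosomal proteins made up the largest block of the brightest genes. All 127 were measured, with a median of 14.26, and 116 were in the brightest 10%. They filled 91 of the 272 places in the brightest 5%, or 33.5%. RPL10 was the highest at 15.01, and RPL41A, on a shared probe set, the lowest at 9.99. Translation factors were also bright, with 11 of 21 measured genes in the brightest 10% and a median of 13.38. The machinery that assembles ribosomes was much dimmer: none of 45 ribosome biogenesis genes was in the brightest 10%, their median was 11.40, and they ran from SSF1 at 9.59 to NHP2 and NOP1 at 13.09. Mitochondrial ribosomal proteins were similar, with none of 68 in the brightest 10%, a median of 11.42, and a range from RSM22 at 9.49 to MRPS12 at 12.64.

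Yeast keeps most of its ribosomal proteins as paralog pairs, and the arrays gave both copies of 50 pairs. The copies differed by a median of 0.55 in either direction. The A copy had the larger value in 28 pairs and B in 22, but most of these gaps were below 1 and are not read. In 9 pairs the difference was over 1. It was greatest for RPL15, where RPL15A read 14.25 ± 0.03 and RPL15B 11.52 ± 0.07 (SD, n = 3), a difference of 2.73. For 13 pairs at least 1 copy sits on a shared probe set, so near-identical copies may be read together. Of the pairs over 1 apart, this applies to RPL4 (a difference of 1.87) and RPS19 (1.36).

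Most genes of the respiratory complexes and the tricarboxylic acid cycle were in the brightest 10%. This held for 8 of 8 nuclear subunits of cytochrome c oxidase (median 13.93), 13 of 14 ATP synthase subunits (median 13.95), 9 of 10 genes of the bc1 complex and cytochrome c (median 13.76) and 12 of 16 measured genes of the tricarboxylic acid cycle (median 13.82). Of the 3 NADH dehydrogenases, which feed electrons into the chain, NDE1 was in the brightest 10% at 14.23, and NDI1 and NDE2 read 13.28 and 12.77. Among the highest were ATP2 and ATP1, the catalytic and partner subunits of ATP synthase, at 14.81 and 14.74. ACO1 (aconitase) and CIT1 (citrate synthase) followed at 14.53 and 14.51. The lowest of the bc1 complex was QCR8, a small subunit, at 10.93 ± 0.07 (SD, n = 3), while QCR7 and QCR9 of the same complex read 14.28 and 14.19. PET9, the main ADP/ATP carrier of the mitochondrial inner membrane, read 14.99, 14.98 and 14.98 on the 3 arrays. In these lists replicate 3 tended to be the lowest by a little: it was lowest for all 8 cytochrome c oxidase genes, by a median of 0.05 against the mean of the other two arrays, for 14 of 16 genes of the tricarboxylic acid cycle, for 10 of 14 ATP synthase genes and for 6 of 10 genes of the bc1 complex and cytochrome c. Over all genes replicate 3 was lowest for 2173 of 5449.

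Genes of alcoholic fermentation and acetate formation, which share the enzymes of ethanol and acetate use, had a median of 13.90, with 8 of 15 in the brightest 10%. ADH2 read 15.11, 15.09 and 15.08, and ACS1, the acetyl-CoA synthetase that glucose represses, read 14.74, 14.69 and 14.69. ALD6, the cytosolic aldehyde dehydrogenase, had a mean of 14.68. These 3 genes lay in the brightest 5% of genes. Other members of the list were much lower, among them ADH5 at 11.77, ALD2 at 11.44, ADH4 at 10.86 and ALD3 at 10.46. The glyoxylate cycle and gluconeogenesis list had a lower median of 12.66, with 4 of 13 genes in the brightest 10%. Its signature enzymes were ICL1 (isocitrate lyase) at 12.45 ± 0.17, MLS1 (malate synthase) at 12.19 ± 0.12, FBP1 (fructose-1,6-bisphosphatase) at 11.11 ± 0.09 and PCK1 (phosphoenolpyruvate carboxykinase) at 10.86 ± 0.06 (SD, n = 3). FBP1 and PCK1 thus lay within 0.2 of the median of all genes. Peroxisomal beta-oxidation, which breaks down fatty acids, had a median of 12.66 and was led by FOX2, the multifunctional enzyme of the pathway, at 13.95.

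The regulators of these programmes were nearer the middle of the ranking. None of 19 was in the brightest 10%, and their median was 10.90. HAP4, the activator subunit for respiratory genes, read 12.45, HAP1, the heme-responsive activator, 12.48, and ADR1, an activator of ADH2 and peroxisomal genes, 11.82. SNF1, the kinase that lifts glucose repression, read 11.65 and the repressor MIG1 11.54. The lowest of the list were MIG3 at 8.15 and MIG2 at 7.32, relatives of MIG1, of which MIG2 is known as a glucose-induced repressor.

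The hexose transporters split into bright and dim genes, with 3 of 14 measured members in the brightest 10% and 2 at or below the limit. HXT7, a high-affinity glucose carrier, read 14.65, 14.70 and 14.74 on replicates 1, 2 and 3. Its probe set is a shared kind, and HXT6, its near-identical neighbour, was not analysed here. HXT2, another carrier of high affinity, read 14.56, 14.60 and 14.63, and HXT5, known from slow growth and starvation, read 14.35, 14.39 and 14.40. These 3 genes rank above every other hexose transporter on each array by over 2. HXT4 followed at 12.17, 12.26 and 12.18. HXT3, a low-affinity carrier, read 11.77, 11.82 and 11.91. HXT1, the low-affinity carrier that high glucose induces, read 7.01, 7.18 and 7.33, above the background limit on each array but 7.52 below HXT7. The remaining genes ran from HXT9 at 8.32 down to HXT13 at 4.93 and HXT15 at 4.44, the last 2 below the limit on all 3 arrays. HXT12 and HXT16 were not analysed here. HXT9 and HXT17 (7.89) each have a dimmer probe set, at 6.67 and 3.63, the latter below the limit. The number of genes at or below the limit thus rests on keeping the brightest set.

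**Figure D3:**
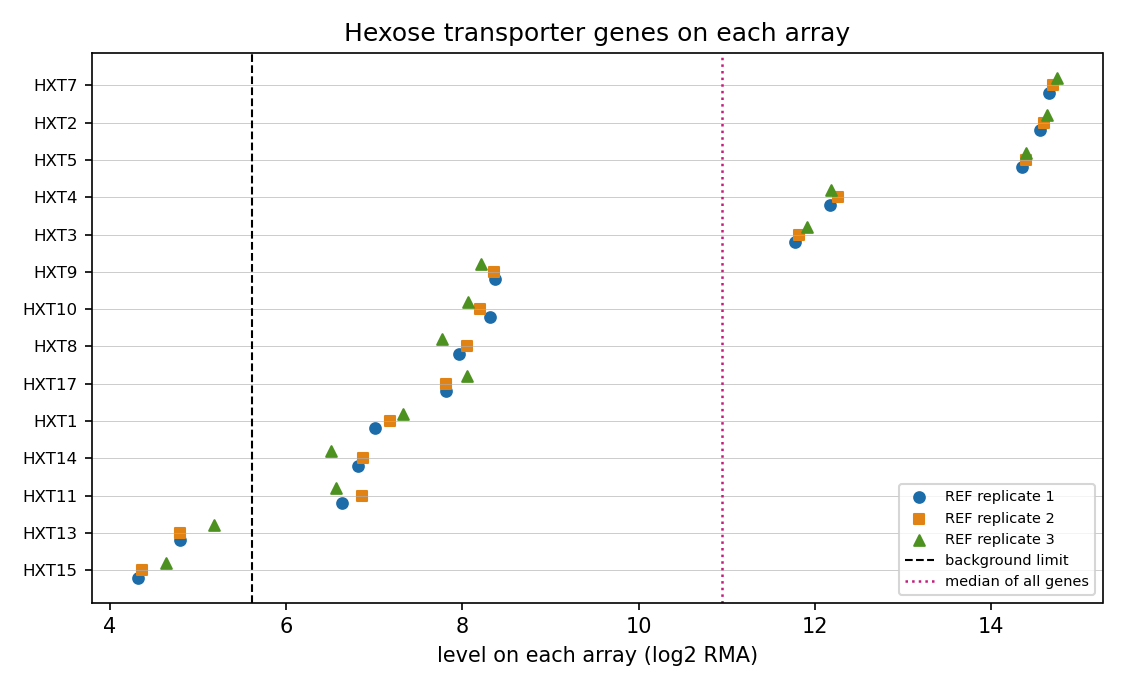
Level of 14 hexose transporter genes (rows) on each of the 3 REF arrays (horizontal axis, log2 RMA; circles, squares and triangles for replicates 1, 2 and 3), with the background limit dashed and the median of all genes dotted. HXT7, HXT2 and HXT5 lie at 14.35 and above on every array, HXT4 and HXT3 between 11.77 and 12.26, and all others at 8.38 or below.

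Genes for other carbon sources ranged just as widely. JEN1, the lactate and pyruvate permease, read 14.58, 14.57 and 14.51, and ADY2, an acetate transporter, read 13.77, 13.74 and 13.65. GUT2, mitochondrial glycerol-3-phosphate dehydrogenase, had a mean of 14.36 and SUC2, invertase, 13.30. The maltose genes MAL11 and MAL32 read 12.15 and 12.08. The galactose genes, which need galactose for induction, were low: GAL1 (galactokinase) 8.85, GAL7 7.71, GAL2 (the galactose permease) 7.05, and GAL10, at 4.95, below the limit.

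Isoforms of the same enzyme or carrier differed widely in some pairs and little in others. Of 37 pairs measured, 12 differed by over 2, 10 by 1 to 2 and 15 by under 1, and the sign was the same on all 3 arrays in each pair. The SD of a pair's difference over arrays had a median of 0.04, well below the median of 0.66 between probe sets of the same gene. An SD given with a pair is thus the spread over arrays only and does not cover unequal binding of probe sets. With 3 arrays no exact paired test can give a p below 0.25, and none was run.

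In all 5 pairs known as aerobic and hypoxic forms the aerobic form read higher, by 2.12 to 8.13. PET9 exceeded AAC3, a hypoxic ADP/ATP carrier, by 8.12, 8.12 and 8.14 on the 3 arrays (14.98 against 6.86). HYP2 exceeded ANB1, the hypoxic form of translation factor eIF5A, by 6.72, 6.75 and 6.73 (14.94 against 8.21). COX5A exceeded COX5B, the hypoxic form of a cytochrome c oxidase subunit, by 5.68, 5.67 and 5.54 (14.27 against 8.64). The gap of PET9 and AAC3 is above the 7.84 found at most between probe sets of the same gene. The gaps of HYP2 and COX5A lie inside that range, in which 12 of 47 genes passed 2. Nearly all of those 47 genes have a shared probe set, so that range is not a measure of unequal binding alone. CYC1 exceeded CYC7, the cytochrome c of low oxygen, by 2.89 ± 0.05, and HMG1 exceeded HMG2, of sterol synthesis, by 2.12 ± 0.04 (SD, n = 3). Not all hypoxia-associated genes were low. Of 6 anaerobic cell wall mannoproteins (median 10.52), TIR3 and TIR4 read 12.39 and 11.39. TIR1 read 10.71, DAN4 10.32, DAN1 9.22 and TIR2 8.66. HEM13, a heme synthesis gene of low oxygen, read 11.51. The 13 seripauperins (PAU genes), of which 10 are on shared probe sets, had a median of 12.01. They were split, from PAU21 at 7.03 to PAU23 at 13.41, with 8 of 13 above the median of all genes. The other probe set of PAU23 read 10.57.

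Glycolytic and fermentative isoforms fell into those that differ and those that do not. CDC19, the main pyruvate kinase, exceeded PYK2 by 4.10 ± 0.02, and PDC1 exceeded PDC5 by 4.58 ± 0.07 and PDC6 by 3.61 ± 0.08 (SD, n = 3). GPD1, the glycerol-3-phosphate dehydrogenase of osmotic stress, exceeded GPD2, that of redox balance, by 3.40, 3.54 and 2.90, the least steady difference of all pairs. By contrast ENO1 and ENO2 were 0.09 apart, ADH2 and ADH1 0.26 apart, HXK1 and HXK2 0.98 apart and ACS1 and ACS2 0.74 apart. The cytosolic and mitochondrial aldehyde dehydrogenases ALD6 and ALD4 were 0.57 apart. A gap below 1 is within what probe sets of the same gene show, so neither form of these pairs is called higher. GDH1, the main glutamate dehydrogenase that uses NADPH, exceeded GDH3, an isoform known from growth on ethanol, by 3.70 ± 0.11. CIT1 exceeded CIT3, the minor mitochondrial citrate synthase, by 2.63 ± 0.04.

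**Figure D4:**
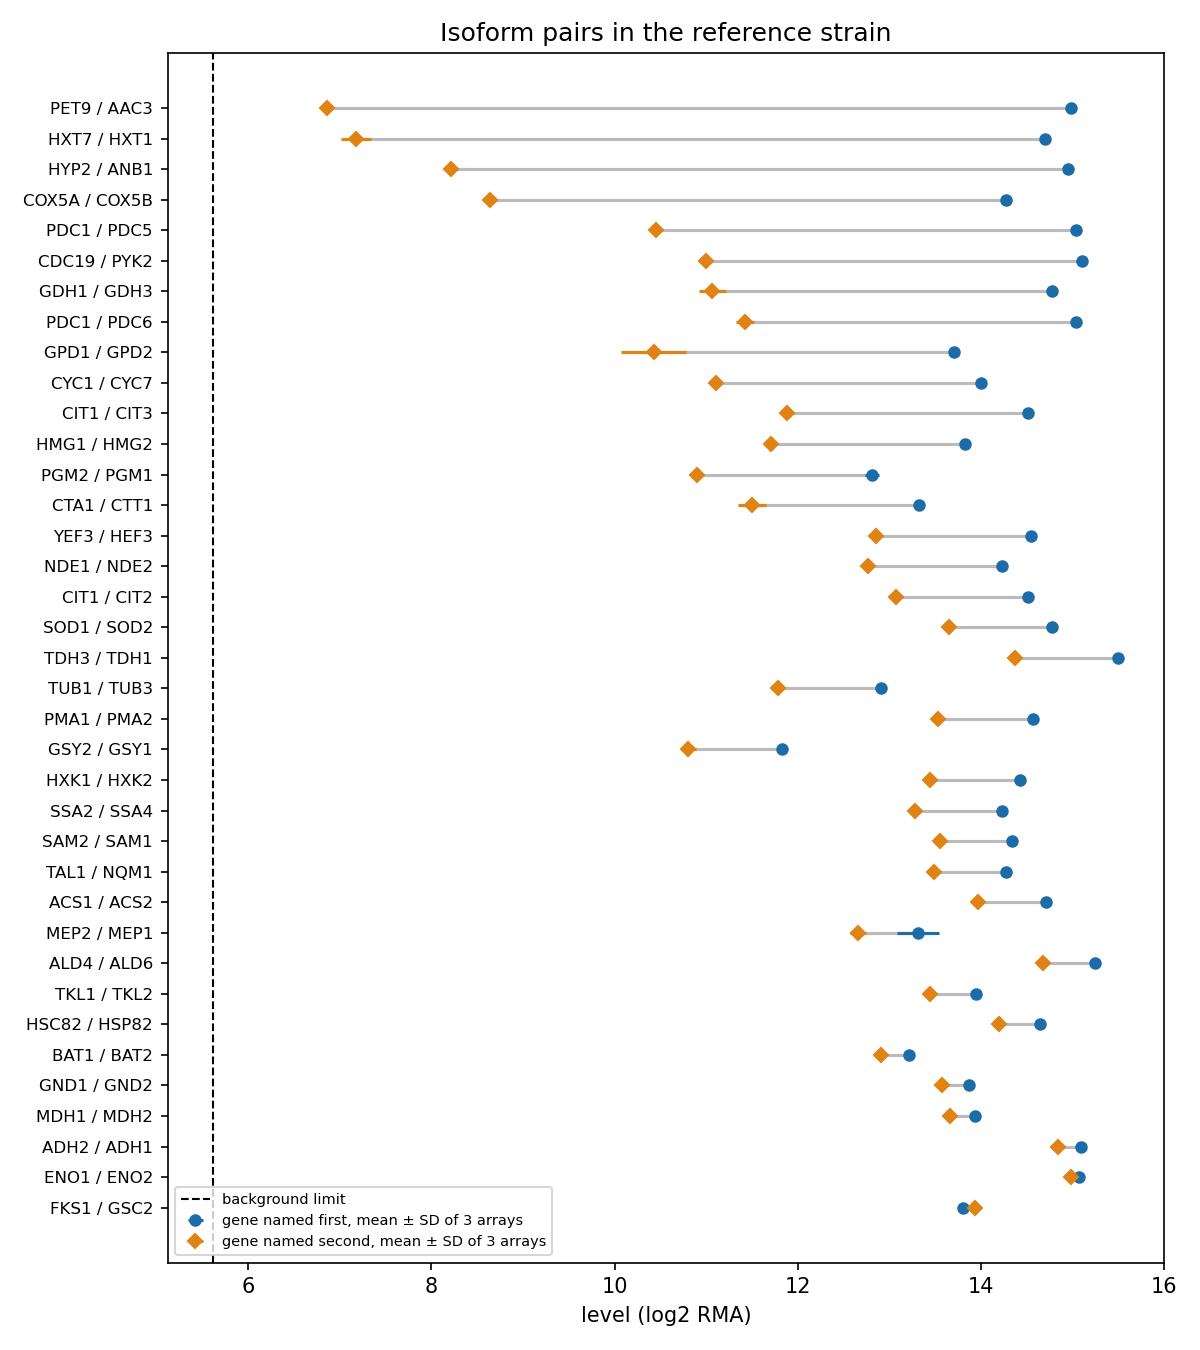
Mean level with SD over the 3 REF arrays (horizontal axis, log2 RMA) of both genes of 37 isoform pairs (rows), with circles for the gene named first, diamonds for the other and the background limit dashed. Gaps run from 8.13 for PET9 and AAC3 to -0.13 for FKS1 and GSC2, and 12 pairs are over 2 apart.

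Stress genes were high, and reserve genes less so. In the heat shock and stress list, 16 of 24 measured genes were in the brightest 10% and the median was 14.21. HSP26, HSP12 and DDR2 led it, the chaperones SSA1 (14.98), HSC82 (14.65) and HSP104 (14.26) followed, and SIP18 and GRE1, small proteins known from desiccation and osmotic stress, read 14.61 and 14.49. The lowest member was ALD3, a stress-induced aldehyde dehydrogenase, at 10.46. Trehalose and glycogen genes had a median of 12.32, with 3 of 17 in the brightest 10%, led by TPS1 (trehalose-6-phosphate synthase) at 13.67 and GLC3 (the glycogen branching enzyme) at 13.66. Among antioxidant enzymes, AHP1, a peroxiredoxin, read 14.96 and SOD1, the copper-zinc superoxide dismutase, 14.78. The catalase of peroxisomes, CTA1, read 13.32 and the cytosolic CTT1 11.50, a difference of 1.82 ± 0.11 (SD, n = 3). This gap is close to the largest spread within a control transcript, 1.72, so it is a coarse reading.

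Lipid synthesis matters in this series because the strains were built around fatty acid desaturases. OLE1, the native fatty acid desaturase, read 14.67 ± 0.01 (SD, n = 3) in the reference strain. FAS1 and FAS2, the fatty acid synthase subunits, read 14.74 and 14.32, ACC1, acetyl-CoA carboxylase, 14.54, and CYB5, cytochrome b5, 13.61. MGA2 and SPT23, the membrane-bound activators of OLE1, read 11.14 and 11.45. Of 19 genes in the fatty acid list 8 were in the brightest 10% (median 13.20). Ergosterol synthesis had 16 of 23 genes in the brightest 10% and a median of 13.69. There the late enzymes ERG25 and ERG6 read 15.16 and 14.87, and the mevalonate kinases ERG12 and ERG8 12.46 and 12.60. Phospholipid synthesis had a median of 11.41, with OPI3 (phospholipid methyltransferase) and ITR1 (the inositol permease) highest at 14.12 and 14.11. INO1, inositol-3-phosphate synthase, which inositol represses, read 13.03 ± 0.03.

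Nitrogen genes showed high synthesis and middling uptake. Amino acid synthesis had a median of 13.16, with 24 of 58 measured genes in the brightest 10%, led by MET6 (methionine synthase, 14.68) and ILV5 (branched-chain amino acid synthesis, 14.62). GDH1 and GLN1, which fix ammonium into glutamate and glutamine, read 14.77 and 14.04. Permeases had a median of 11.34 and ran from PUT4, a proline permease, at 13.52 to BAP3, a branched-chain amino acid permease, at 5.64, next to the limit. The 8 genes for allantoin and urea use were lower still, with a median of 9.90 and a range from DAL1 at 7.80 to DAL3 at 11.01. In the phosphate regulon PHO5, the secreted acid phosphatase, was below the limit at 3.44, 3.13 and 3.28. PHO84, the high-affinity phosphate transporter, read 8.62, 8.95 and 9.36, while VTC1, of polyphosphate storage, read 12.44.

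Cell cycle and cell type genes were mostly low to middling. The core histones HTA2, HTA1 and HTB1 read 14.27, 14.19 and 14.12. HTA2 is on a shared probe set, and its other probe set read 12.76. None of 14 cyclins reached the brightest 10%, and these had a median of 10.29. The labels give no mating type. All 7 markers of MATa cells were above the limit, as were 98% of all genes, and they ran from ASG7 at 9.11 to STE2, the alpha-factor receptor, at 12.78, with the a-factor genes MFA1 and MFA2 at 12.64 and 11.88. The 4 markers of MATalpha cells lay at 10.07 (SAG1, the alpha-agglutinin), 9.41 (STE3, the a-factor receptor), 6.11 (MF(ALPHA)1) and 5.97 (MF(ALPHA)2), all above the limit, with the alpha-factor genes close to it. No marker of either list was at 0 or below the limit. In RNA from a whole culture, fewer cells of a type and less RNA per cell cannot be told apart, and no mating type was assigned.

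Meiosis and sporulation genes had a median of 8.12, at the 6.28th percentile of all genes, and 2 of 29 measured members (SPO19 and REC114) were below the limit. IME1, the master inducer of meiosis, read 9.50, 9.42 and 9.50, and NDT80, which drives the middle genes, 8.74, 8.75 and 8.73. The late genes DIT2 and GAS4, both of spore wall formation, read 5.81 and 6.57. SPS100, a spore wall gene, was the exception at 13.31, 13.49 and 13.55, within the brightest 10% of genes. Flocculins were low as well: FLO1 lay below the limit at 4.50, and FLO9, FLO10 and FLO11 read 10.41, 9.18 and 9.09.

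The genes near the limit show how sharp it is. Just above it lay ECM11 (5.62), OSW1 (5.63), YHL012W (5.63), BAP3 (5.64) and YJR079W (5.65). Just below it lay YOL014W (5.61), FCY22 (5.57), SPR2 (5.56), YFL040W (5.55) and YMR315W-A (5.55). OSW1, with an SD of 0.35, was above the limit on replicates 1 and 2 and below it on replicate 3, so genes at the edge have no firm side.

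The 109 genes at or below the limit were short and often of uncharacterised reading frames. Their median length was 390 bases, against 1236 for all genes and 886.5 for the brightest 5%. Among 249 genes with a hyphenated systematic name, the form given to small reading frames added after the first annotation, 48 (19.3%) were at or below the limit, against 61 of 5200 other genes (1.17%). Among genes of up to 150 bases it was 18 of 56 (32.1%). Of the 109, 61 had no standard gene name, against 499 of all 5449 genes. The 47 lists hold 8 of the 109 (7.34%), against 915 of all genes (16.8%). These 8 are SPO19, REC114, GAL10, HXT13, HXT15, ARN2, FLO1 and PHO5. How much of this reflects few or poorly binding probes and how much low transcript was not tested.

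Genes near chromosome ends were dimmer by gene order. The 98 genes within the 5 outermost positions of an arm had a median of 8.96 and 18.4% of them were at or below the limit. The median was 10.36 for the 137 genes at positions 6 to 10 (6.57% at or below the limit), 10.81 for the 291 at positions 11 to 20 (3.44%), and 10.99 for the 4920 farther in (1.46%). These are counts over genes, which are not independent, and carry no test. Positions were numbered over all protein-coding genes, and only genes measured here enter the counts. The genes at the 5 outermost positions were also shorter, with a median of 873 bases against 1243.5 for those farther in. How much of the trend goes with length was not tested.

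A small set of genes was not steady over the 3 arrays, and iron uptake led it. Of all genes, 98 (1.80%) had an SD over 0.2. Among iron and copper uptake genes it was 10 of 22 measured members, and replicate 3 was the highest array for 15 of the 22 and the lowest for 4. FRE5, a putative iron reductase, read 5.22, 5.45 and 7.09 and had the largest SD of all genes, 1.02. It was below the limit on replicates 1 and 2, and its mean of 5.92 passed the limit only through replicate 3.

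Other iron genes moved the same way. FET3, the multicopper oxidase of high-affinity iron uptake, read 10.39, 10.62 and 11.82. FIT3 and FIT2, cell wall mannoproteins that retain siderophore iron, read 12.18, 12.23 and 13.32, and 10.58, 10.63 and 11.68. SIT1, a siderophore transporter, read 9.86, 10.07 and 10.94. In these 4 genes replicates 1 and 2 lay within 0.23 of each other, and replicate 3 exceeded their mean by 0.98 (SIT1) to 1.31 (FET3). TIS11, which degrades transcripts of iron-using proteins when iron is short, read 8.77, 8.94 and 9.65, and ARN1 10.56, 10.63 and 11.30. The copper genes CTR3 and CTR1, the high-affinity copper transporters, and FRE4 were lowest on replicate 3, and CUP1-1, copper metallothionein, was steady at 14.95 ± 0.01 (SD, n = 3).

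**Figure D5:**
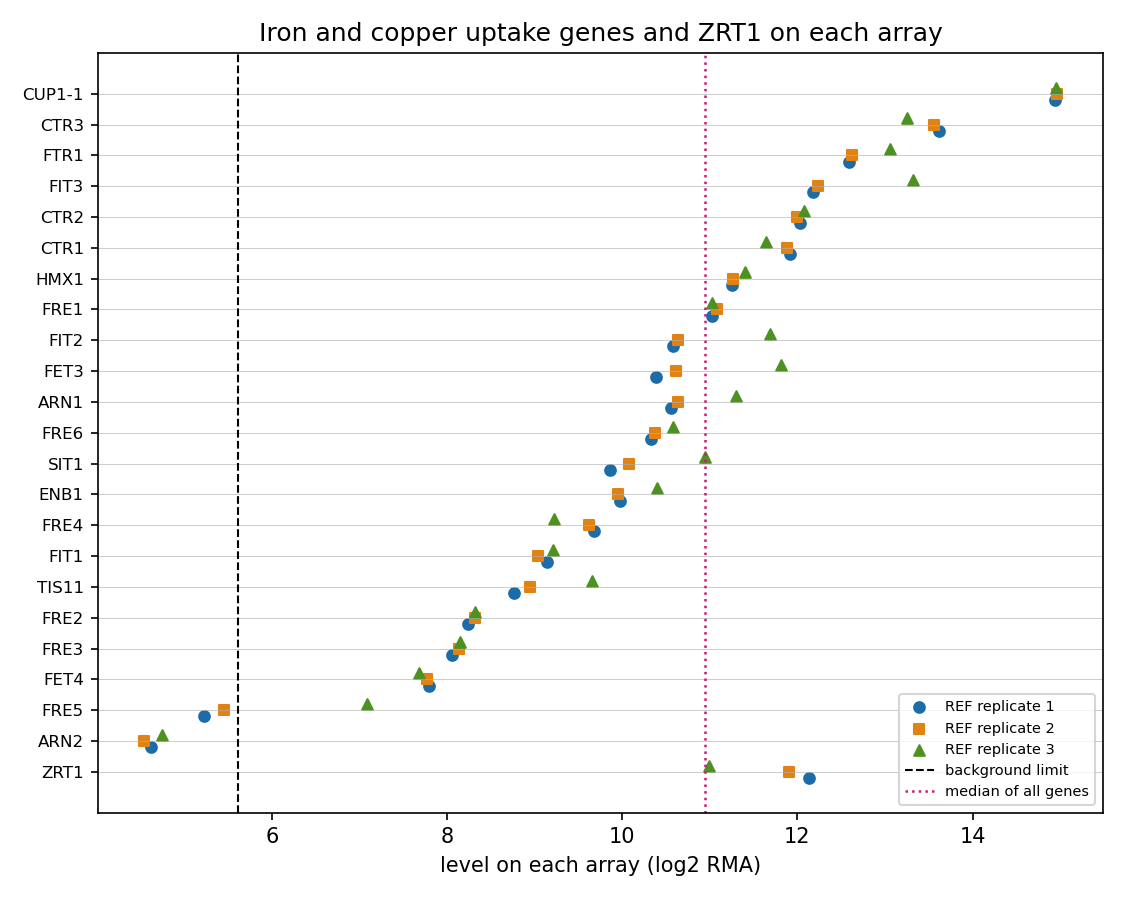
Level of 22 iron and copper uptake genes and of the zinc transporter ZRT1 (rows) on each REF array (horizontal axis, log2 RMA; circles, squares and triangles for replicates 1, 2 and 3), with the background limit dashed and the median of all genes dotted. Replicate 3 lies to the right for FRE5, FET3, FIT3, FIT2, SIT1, TIS11 and ARN1 and to the left for ZRT1, at 10.99 against 12.14 and 11.90.

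Outside the iron genes, the largest spreads included ZRT1, the high-affinity zinc transporter, at 12.14, 11.90 and 10.99, lowest on replicate 3. FLO11, a flocculin, read 8.90, 8.78 and 9.59. TDA10 and ADA2 were also lowest on replicate 3, YGR035C and VBA3 were lowest on replicate 1, and GLO4 was lowest on replicate 2. Replicate 3 was the highest array for 6 of 6 anaerobic mannoproteins and 10 of 13 seripauperins, against 1834 of all 5449 genes. Replicate 3 also had the lowest ribosomal RNA signals. Whether the culture, the RNA or the hybridisation of replicate 3 differed was not tested, and without replicate 3 the median of the iron and copper list was 10.43 in place of 10.63.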

How the data were processed

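Total RNA from 3 REF chemostat samples was labelled with biotin and hybridised to Affymetrix yeast arrays, per the labels. The authors deposited log2 expression values. They came from RMA (affy), per the submitters' processing notes. Versions and the genome build were not given in the sources used here. Because RMA equalises the distributions, the total RNA of a cell is not measured, and bright signals may be compressed.

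Of 10928 probe sets, 5498 matched 5449 genes of the RefSeq table of S. cerevisiae by gene identifier (12 symbols updated), 1746 named other genes, 1 named several, 3470 carried no name and 213 were controls. For each gene the brightest probe set over the REF arrays was kept. Of the genes, 113 were on a shared probe set, that is, a set whose name ending marks that it can bind similar transcripts. Means, SDs and ranks were computed with pandas 2.3.3 and numpy 2.4.6 on Python 3.11.15. A run on simulated data set genes at levels of the background probe sets or well above the limit. It checked the calculation of the limit only, and could not show if the limit separates transcribed genes from untranscribed ones. With 1 group there is no contrast, so no test was run. The number of arrays limits the precision.

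Genes set out for naming were the 20 brightest, the 15 least steady above the limit, and 8 genes of lipid synthesis and selection. To these came the 3 highest and 3 lowest of each list, all isoforms and all cell type markers. The text leaves out some of these, such as the markers of haploid cells. It also names other list members, such as ICL1, MIG1 and HSP104. Members and lists were chosen with earlier results of these data known. Alternatives were the limit, the choice of probe set, shared probe sets, centring, the median over arrays and leaving out each array. Sequences of promoters and proteins were not used here.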

Additional observations from a re-analysis of the deposited data

How the results depend on the processing

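Of the counts reported, only the number of genes at or below the background limit moved by over 1.5 times under the alternatives run. Counts near their highest possible value, such as the genes above the limit, could hardly move by that much. With the limit at the 99th percentile of the background probe sets, 191 genes were at or below it. There were 109 at the 95th and 90 at the 90th. Leaving out each array in turn gave 111 to 114 such genes, and 5335 to 5338 above the limit. Without 1 array, 270 to 271 of the 272 genes of the brightest 5% were shared with the full set, 35 of the 47 lists had a median above that of all genes, and 12 isoform pairs were over 2 apart. With shared probe sets left out, these were 251, 34 and 11. No isoform difference changed sign under any alternative run. The sign was the same on all 3 arrays in each pair, so leaving out an array, medians or ranks could not change it. Taking the mean or the dimmest probe set of a gene left these differences unchanged, so unequal binding of probe sets was not varied. The list medians that moved most were those of the COS family (9.43 without shared probe sets), the seripauperins (11.44) and the hexose transporters (7.55), the last 2 with the dimmest probe set of each gene. No paired analysis was possible because only 1 group was used, so replicate numbers had no other group to pair with. Protein and promoter features were not run, because no sequences were used here. Depth is not a quantity of arrays, and signals near the limit cannot be told apart from background.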

Other observations

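Other groups filled in the middle and upper ranking. The proteasome had a median of 13.08, and its 32 subunits lay close together, from RPN12 at 12.26 to PRE6 at 13.87. RNA polymerase II and general transcription factors had a median of 11.86, with none of 19 in the brightest 10%. In the plasma membrane list, 8 of 10 genes were in the brightest 10%: NCE102 and PIL1, both of eisosomes, read 15.03 and 14.60, and PMA1, the proton pump, 14.57. Cell wall genes ran from CCW12 at 15.32 to DSE4, a daughter-cell glucanase, at 9.72. FKS1 and GSC2, the vegetative and stress forms of glucan synthase, were 0.13 apart.

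Some genes were picked after their values were seen. GCN4, the activator of amino acid synthesis genes, read 14.91, 14.89 and 14.90 and ranked 39 of all genes. BRN1, an essential condensin subunit, was below the limit at 4.55, which is a level of its probe set and not evidence of absence. Several meiotic genes outside the lists were below the limit too, among them NDJ1 (3.61), SAE3 (3.38), MEI5 (3.27) and MEK1 (5.21). Of the 3470 probe sets with no gene name in the table, 393 (11.3%) were above the limit, 92 of them above the median of all genes, and the brightest read 14.61.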
